A study of Mus musculus with 11 samples.

Results

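The wild type (wt) face of the mouse embryo at E10.5 was described from 2 libraries, wt1 and wt2, which are the samples labelled wild type among the 11 of the series. Both hold total RNA from explants of the facial processes, that is the nasal processes together with the maxillary and mandibular parts of the first branchial arch, from mixed-strain embryos at embryonic day 10.5. Neither library carries a mutant allele or a treatment according to its labels. The labels do not say whether each library came from 1 embryo or from a pool, nor whether both came from the same litter, so the spread between them may be technical or biological. The 9 libraries of *Wnt9b* and *Rspo2* mutants were not analysed here. For RNA sequencing the paper describes more wild type samples than the 2 in this series.

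The facial processes are swellings of mesenchyme, most of it derived from the cranial neural crest, which are covered by an epithelium and grow around the future mouth and nose. Homeobox and basic helix-loop-helix transcription factors give this mesenchyme its regional identity, and signals of the WNT, FGF, BMP and hedgehog families pass between epithelium and mesenchyme as the processes grow out and fuse. R-spondins are secreted proteins that strengthen WNT signaling by binding LGR receptors and removing the ubiquitin ligases ZNRF3 and RNF43 from the cell surface. For the joint action of WNT9B and RSPO2 in the face, the paper proposes that LGR receptors may matter less. Explants of whole processes also carry blood vessels, blood, cranial nerves and, where the cut reaches them, neighbouring tissue.

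Levels are given as CPM, the counts of a gene per 1000000 counts of its library, and genes are compared with each other only as RPKM, which is CPM per kilobase of exon. Total counts were 11136166 in wt1 and 16764595 in wt2, so 1 CPM stands for 11.1 counts in wt1 and 16.8 counts in wt2. A gene with 3 counts or fewer in both libraries was treated as at the floor, which corresponds to 0.269 CPM in wt1 and 0.179 CPM in wt2. Of the 38561 genes in the count tables, 14623 (37.9%) had a mean of at least 1 CPM, and 19761 were at the floor. Among 21263 protein-coding genes the share at 1 CPM or above was 62.3%, which is 13249 genes. Of these, 7356 were at 10 to 100 CPM, 1970 at 100 to 1000 CPM and 45 at 1000 CPM or above. Counts of list members at 10 or 100 CPM are to be read beside these. The most abundant RNA was the mitochondrial ribosomal RNA *mt-Rnr2*, at 79950 CPM in wt1 and 84010 CPM in wt2. Non-polyadenylated RNAs such as *Rpph1*, at 12390 and 12370 CPM, and *Rn7sk*, at 8402 and 9677 CPM, were also among the leading genes. The 10 protein-coding genes with the highest CPM were *Eef1a1*, *mt-Co1*, *mt-Co3*, *Pkm*, *mt-Atp6*, *Actb*, *Tubb5*, *Hbb-y*, *Eef2* and *Nedd4*, which encode translation factors, subunits of the respiratory chain, a glycolytic enzyme, cytoskeletal proteins, an embryonic globin and a ubiquitin ligase. Their means ran from 8001 CPM for *Eef1a1* to 2307 CPM for *Nedd4*.

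The identity of the tissue was read from 6 markers. *Twist1*, a basic helix-loop-helix factor of cranial mesenchyme (chromosome 12, 33957671 to 33959829 of GRCm38), was at 105 CPM in wt1 and 108 CPM in wt2. *Prrx1*, a paired-type homeobox factor of limb and facial mesenchyme (chromosome 1, 163245119 to 163313710), was at 380 and 340 CPM. *Alx4*, a homeobox factor of frontonasal mesenchyme (chromosome 2, 93642384 to 93681339), was at 187 and 162 CPM. These 3 markers were thus well above 1 CPM in either library. *Dlx5*, a homeobox factor of the lower jaw arch and the nasal placode (chromosome 6, 6877805 to 6882085), was chosen with them as a marker of facial mesenchyme. It was low, with 33 counts (2.96 CPM) in wt1 and 51 counts (3.04 CPM) in wt2. *Epcam*, an adhesion molecule of epithelial cells (chromosome 17, 87635979 to 87651129), was at 30.9 and 36.4 CPM. *Hbb-y*, a globin of primitive red cells (chromosome 7, 103851749 to 103853216), was at 2242 and 2698 CPM. Per length the order was *Hbb-y* with 3902 RPKM, *Twist1* with 65.3, *Prrx1* with 32.5, *Alx4* with 24.7, *Epcam* with 15.3 and *Dlx5* with 1.33, and no neighbours in this order overlapped between the libraries. The labelled tissue was therefore represented by its mesenchyme, its epithelium and blood, with *Dlx5* the lowest of the markers as counted. How strand and multi-mapped reads were handled is not given in the sources used here, and its part in the level of *Dlx5* was not tested.

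The 60 bases before the RefSeq start of 3 of these markers and of *Myl7*, a cardiac myosin light chain that differed between the libraries as described further on, are shown because they represent genes of mesenchyme, epithelium, blood and heart. They were read from the RefSeq promoter table of GRCm38.p6, in which *Alx4* and *Dlx5* were not found. The RefSeq start of *Hbb-y* lies inside the gene span given above, which comes from GENCODE, so the last bases of its window fall within that span. The capitals mark the letters TATAAA, or the related TATAAG, or the related CATAAA, searched on the strand of the gene and chosen after these windows had been read.
Twist1, chr12:33957611-33957670, plus strand: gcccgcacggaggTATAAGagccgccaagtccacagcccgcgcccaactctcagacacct
Epcam, chr17:87635919-87635978, plus strand: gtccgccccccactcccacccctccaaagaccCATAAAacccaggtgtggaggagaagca
Hbb-y, chr7:103853208-103853267, minus strand: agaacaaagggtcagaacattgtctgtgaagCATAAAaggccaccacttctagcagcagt
Myl7, chr11:5898783-5898842, minus strand: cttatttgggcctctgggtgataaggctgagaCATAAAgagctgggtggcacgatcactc

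The letters began 47 bases before the RefSeq start in *Twist1*, 28 in *Epcam*, 29 in *Hbb-y* and 28 in *Myl7*. Of 16194 protein-coding genes with a promoter sequence, 6.66% held any of the 3 motifs in the same 60 bases. The share was 15.3% among the 4363 genes at the floor, 7.99% between the floor and 1 CPM, 4.47% at 1 to 10 CPM, 2.01% at 10 to 100 CPM and 2.92% at 100 to 1000 CPM. Of the 27 genes at 1000 CPM and above 2 held a motif (7.41%). The motifs hold mostly A and T, and GC content also differed between these classes. Its median was 44.8% at the floor, 54.4% between the floor and 1 CPM, and 58.4% to 62.8% in the classes above. The part of base composition in these shares was not tested. CpG content was lowest at the floor. The median ratio of observed to expected CpG in the 250 bases before the start was 0.163 at the floor, 0.363 between the floor and 1 CPM, 0.562 at 1 to 10 CPM, 0.761 at 10 to 100 CPM, 0.824 at 100 to 1000 CPM and 0.778 above that. The single values were 0.74 for *Twist1*, 0.405 for *Epcam*, 0.234 for *Myl7* and 0.0907 for *Hbb-y*. In the erythroid list 6 of 13 promoters held the letters, in the heart list 5 of 17, in the facial mesenchyme list 4 of 16, in the neuron list 3 of 12 and in the epithelium list 1 of 12. The letters were chosen from the windows of *Hbb-y*, *Myl7*, *Twist1* and *Epcam*, and the first 2 of these lists include *Hbb-y* and *Myl7*. The shares in the erythroid, heart, facial mesenchyme and epithelium lists are therefore not independent of that choice. A match of letters is a description and does not show that a factor binds there.

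Transcription factors were listed by family, 418 of them with a row in the count tables. At 1 CPM or above were 306 (73.2%), against 62.3% of all protein-coding genes, and 174 reached 10 CPM. Another 60 were at the floor. The families differed in how much of their membership was present, from 12 of 12 sine oculis, EYA and DACH factors and 17 of 17 LIM homeobox factors and cofactors to 3 of 38 HOX genes.

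**Figure D1:**
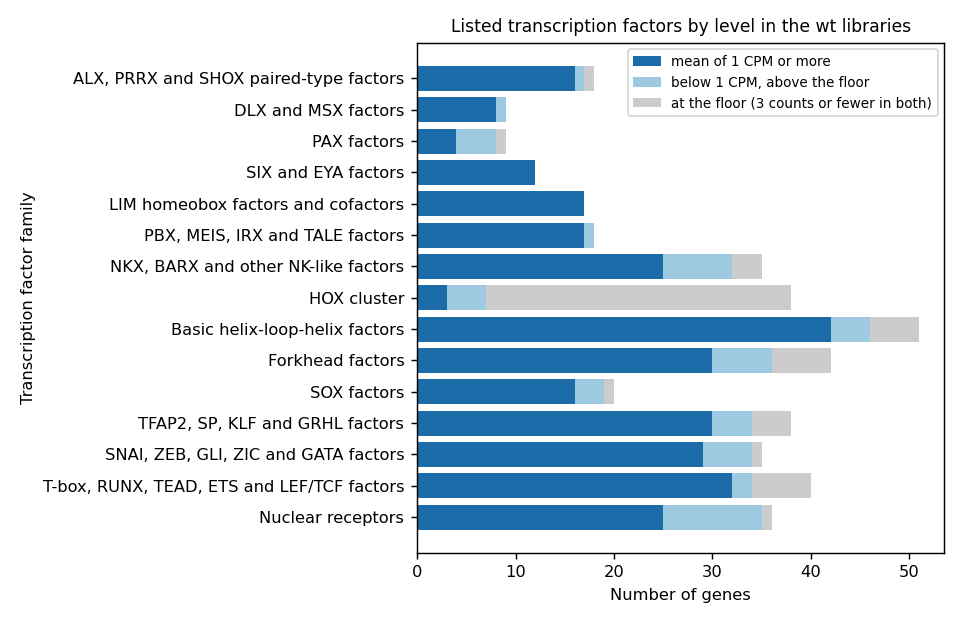
Number of listed transcription factors (x axis) in each family (y axis) by their level in the 2 wt libraries. Dark bars count genes with a mean of 1 CPM or more, light bars genes below 1 CPM but above the floor, and grey bars genes with 3 counts or fewer in both libraries. The HOX cluster has 31 genes at the floor, while the sine oculis and EYA list and the LIM homeobox list have none.

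The listed factor with the highest level per length was *Id3*, an inhibitor of basic helix-loop-helix proteins that is induced by BMP signaling, at 94.3 RPKM in wt1 and 90.3 RPKM in wt2. It was followed by *Tcf3*, the E protein with which many basic helix-loop-helix factors pair, at 82.1 and 79.8 RPKM, and by *Twist1* at 64.3 and 66.3 RPKM. These 3 held the same ranks in both libraries and their ranges did not overlap. The next 4, *Tead2*, *Sp3*, *Id1* and *Cbfb*, had means of 56.1, 54.4, 50.7 and 48.7 RPKM, and each overlapped the next in that order. *Msx1*, a homeobox factor of the distal processes, was ninth with 44.6 and 39.9 RPKM and overlapped *Pbx2* before it and *Mycn* after it. Of the 19 pairs of neighbours among the first 20 factors, 15 overlapped between the libraries. Of the first 20, 19 were among the first 20 of each library, the exception being *Fli1*, which was at rank 15 in wt1 and 22 in wt2.

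**Figure D2:**
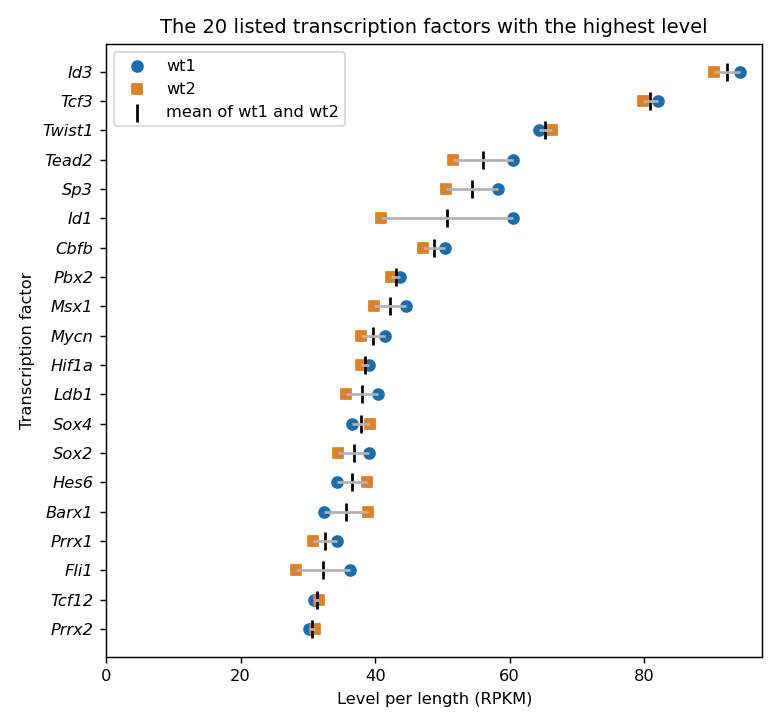
Level per length in RPKM (x axis) of the 20 listed transcription factors with the highest mean (y axis, ordered by mean). Circles are wt1, squares are wt2 and black ticks their mean. *Id3*, *Tcf3* and *Twist1* stand apart from the rest, whereas most neighbours further down overlap, and *Id1* has the widest range (60.5 to 40.9 RPKM).

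Homeobox factors of the frontonasal and maxillary mesenchyme were well represented. *Prrx2*, the paralogue of *Prrx1*, was at 59.1 CPM in wt1 and 60.9 CPM in wt2. *Alx1*, a paralogue of *Alx4* that is also needed for the midface, was at 48.9 and 57.9 CPM. Per length the means were 24.7 RPKM for *Alx4* and 9.28 RPKM for *Alx1*, and their ranges did not overlap. All 12 markers of the maxillary and nasal processes were at 10 CPM or above, among them *Six2* with 37.5 and 38.4 CPM, *Lhx8* with 42.8 and 40.5 CPM, and *Pax7* with 14.2 and 15 CPM. *Pax3*, a factor of neural crest and dorsal neural tube, was less even, with 14.8 CPM in wt1 and 24.8 CPM in wt2.

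Factors of the mandibular arch were present at a range of levels. *Barx1*, which marks the proximal jaw mesenchyme where molars form, had the highest level per length of this list, at 32.4 and 39 RPKM. *Pitx1*, a factor of oral epithelium and mandibular mesenchyme, had 35.2 and 30.7 CPM, and *Gsc*, a homeobox factor downstream of endothelin signaling, had 12.1 and 13.8 CPM. *Hand2*, the factor of the ventral arch, was at 16.8 CPM in wt1 and 12.1 CPM in wt2. The list had 9 of 11 members at 1 CPM or above. *Edn1*, the ligand that sets lower jaw identity, had a mean below that level, from 1.17 and 0.537 CPM, as had *Dlx4*, from 1.26 and 0.716 CPM.

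The DLX genes, which are nested along the arch and code for its proximal and distal identity, were unequal. *Dlx1* was at 45.9 and 43.9 CPM and *Dlx2* at 8.98 and 9.01 CPM. *Dlx6* was at 8.17 and 7.22 CPM and *Dlx3* at 5.75 and 6.44 CPM. Per length the order was *Dlx1* with 8.32 RPKM, *Dlx6* with 3.24, *Dlx2* with 3.15, *Dlx3* with 2.34, *Dlx5* with 1.33 and *Dlx4* with 0.302, of which *Dlx6* and *Dlx2* overlapped between the libraries. *Msx2*, the paralogue of *Msx1*, was at 11.1 and 11 CPM. Per length it had 3.37 RPKM, against 42.2 RPKM for *Msx1*.

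HOX genes, which pattern the trunk and the more posterior arches and are silent in the first arch, were almost absent. The highest was *Hoxa2*, a gene of the second arch and hindbrain, at 4.76 and 5.01 CPM. *Hoxb1* was at 1.08 and 2.15 CPM and *Hoxb2* at 0.988 and 1.55 CPM, and these 3 were the members with a mean of 1 CPM or more. Among the 38 genes 22 had no count in either library, including all measured members of paralogue groups 10 to 12 and every HOXD gene from *Hoxd9* on. A count of 0 allows a level of up to 0.269 CPM in wt1 and 0.179 CPM in wt2. The list of limb and trunk genes, which shares several of these HOX genes, had 3 of 19 members at 1 CPM or above.

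Among the other families, 16 of 20 SOX genes were at 1 CPM or above. *Sox11* was at 211 CPM in wt1 and 248 CPM in wt2, and *Sox9*, the factor of cartilage progenitors, was at 36.5 CPM in both. *Sox10*, which marks migrating crest and glia, was at 15.8 and 17.1 CPM. The TFAP2 genes, which crest and surface ectoderm share, were led by *Tfap2b* with 46.1 and 42.7 CPM, ahead of *Tfap2c* with 14.2 and 13.1 CPM and *Tfap2a* with 7.45 and 8.29 CPM. Per length these were 7, 3.7 and 1.61 RPKM, and none of the 3 overlapped. Of the exon bases of *Tfap2a*, 14.6% are also covered by exons of another gene, as are 19.6% of those of *Hand2*, and reads there could have been left uncounted or shared. Among 42 forkhead genes 30 reached 1 CPM, including the crest and periocular factor *Foxc1* with 46.4 and 45.6 CPM. The hedgehog-responsive *Foxf1* had 24.1 and 24.5 CPM, and *Foxf2* had 12.9 and 16.8 CPM.

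WNT ligands were represented by 13 of 19 genes at 1 CPM or above. The highest per length were *Wnt7b*, with 9.41 RPKM in wt1 and 10.1 RPKM in wt2, and *Wnt5a*, with 9.37 and 9.36 RPKM. *Wnt5a*, a ligand of the non-canonical branch that is made in distal mesenchyme, had 73.3 CPM in wt1 and 73.2 CPM in wt2, and *Wnt7b* had 46.1 and 49.6 CPM. *Wnt9b*, a ligand of the facial ectoderm and one of the genes the study deleted, had 2.67 RPKM, from 121 counts (10.9 CPM) in wt1 and 222 counts (13.2 CPM) in wt2. The epithelial ligands *Wnt6*, *Wnt4* and *Wnt3* were at 11.7 and 13.5 CPM, 8.8 and 8.83 CPM, and 6.11 and 6.03 CPM. *Wnt1*, a gene of the dorsal midbrain and hindbrain, was at 0.449 and 0.298 CPM, and *Wnt8a* was at the floor.

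Of the 4 R-spondins 3 were at 1 CPM or above. *Rspo2*, the other gene deleted in the study, was at 166 counts (14.9 CPM) in wt1 and 265 counts (15.8 CPM) in wt2. *Rspo1* was at 11.8 and 13 CPM and *Rspo3* at 6.38 and 6.14 CPM, while *Rspo4* had 0.359 CPM in wt1 and no count in wt2. Per length the order was *Rspo1* with 6.41 RPKM, *Rspo2* with 3 RPKM and *Rspo3* with 2.03 RPKM, with no overlap. Among their receptors *Lgr4* was at 94.3 and 102 CPM. *Lgr5* was at 6.55 and 6.62 CPM, and *Lgr6* had 5 counts (0.449 CPM) in wt1 and 19 counts (1.13 CPM) in wt2. Per length *Lgr4* had 16.7 RPKM, *Lgr5* 0.642 RPKM and *Lgr6* 0.116 RPKM. The ligases that R-spondins remove were unequal too, with 45.6 and 42 CPM (5.55 RPKM) for *Znrf3* and 4.04 and 4.24 CPM (0.631 RPKM) for *Rnf43*. *Lgr4* and *Znrf3* therefore had the highest levels per length of the 3 receptors and of the 2 ligases.

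**Figure D3:**
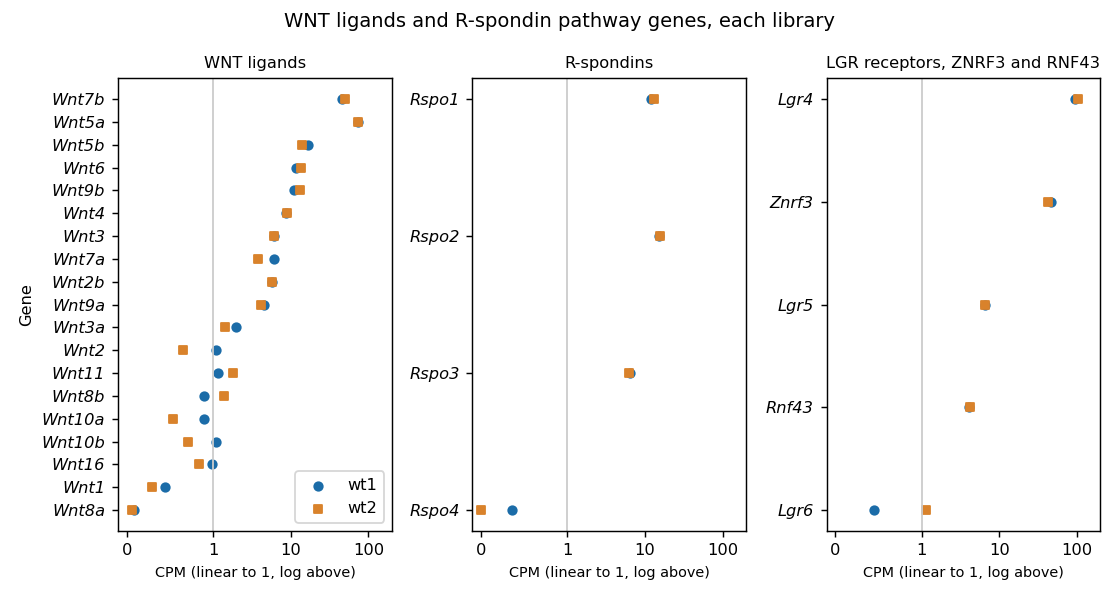
CPM (x axis, linear up to 1 and logarithmic above) of each WNT ligand, R-spondin, LGR receptor and ligase gene (y axis, ordered by mean level per length) in wt1 (circles) and wt2 (squares). The grey line marks 1 CPM. *Wnt5a*, *Wnt7b*, *Lgr4* and *Znrf3* lie far above it, *Rspo4* lies below it in both libraries, and *Lgr6* lies on either side.

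Receptors for WNT were nearly complete, with 16 of 16 Frizzled and co-receptor genes at 1 CPM or above and 15 of them at 10 CPM or above. *Fzd2* was the highest per length, with 38.5 RPKM and 141 CPM in each library. *Lrp6*, the co-receptor of the canonical branch, was at 128 and 150 CPM, and *Ror2*, a receptor for *Wnt5a*, at 35.3 and 33.6 CPM. Secreted antagonists were led by *Sfrp1* with 112 and 111 CPM (25.5 RPKM) and *Frzb* with 35.6 and 36.9 CPM (11.2 RPKM), and *Dkk1* was at 11.3 and 9.25 CPM. Of 15 genes known as WNT/beta-catenin targets 12 were at 1 CPM or above. *Axin2*, a feedback inhibitor used as a general readout of the pathway, was at 55.3 CPM in wt1 and 52.4 CPM in wt2, and *Ccnd1*, a cyclin with many other inputs, was at 389 and 326 CPM.

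FGF ligands were few and low, with 10 of 22 at 1 CPM or above and none with a mean of 10 CPM. *Fgf8*, the ligand of the facial ectoderm that keeps crest cells alive, was at 122 counts (11 CPM) in wt1 and 124 counts (7.4 CPM) in wt2. *Fgf17*, of the same subfamily, was at 8.26 and 10.6 CPM. *Fgf10*, which the study treats as an ectodermal marker, was at 8.26 and 9.25 CPM. The counting interval of *Fgf8* in wt1 relative to wt2 ran from 1.14-fold to 1.92-fold. In contrast to the ligands, 4 of 5 receptors were above 10 CPM, while *Fgfr4* was at the floor. *Fgfr1* was at 124 and 132 CPM and *Fgfr2* at 111 and 121 CPM. Per length the median was 0.253 RPKM over the 22 ligands and 11.2 RPKM over the 5 receptors. All 10 FGF/ERK target genes were at 10 CPM or above. The phosphatase *Dusp6* led them with 176 and 184 CPM (57.3 RPKM), and *Etv5* and *Etv4*, ETS factors induced by FGF, had means of 9.71 and 9.25 RPKM that overlapped.

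Among BMP and GDF ligands 11 of 20 were at 1 CPM or above. *Bmp7* was at 30 and 36.3 CPM and *Bmp4*, which marks distal ectoderm and mesenchyme, at 15.8 and 12.7 CPM, whereas *Bmp2* was at 1.44 and 1.73 CPM. The type I receptor *Bmpr1a* was at 331 and 297 CPM (49.5 RPKM) and the TGF-beta receptor *Tgfbr1* at 319 and 339 CPM (50.4 RPKM), and these overlapped. *Bmpr2* was at 41 CPM in wt1 and 68.8 CPM in wt2, a 1.68-fold difference with a counting interval of 1.51 to 1.88. BMP antagonists were led by *Fstl1* with 322 and 309 CPM and *Twsg1* with 154 and 160 CPM, and *Nog*, a direct inhibitor of BMP, was at 4.85 and 3.88 CPM.

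A single hedgehog ligand, *Shh*, was above 1 CPM, with 13.2 CPM in each library, and *Ihh* was at the floor. The hedgehog receptors and co-receptors were all present, led by *Gas1* with 58.7 RPKM and *Smo* with 57 RPKM. The target genes *Ptch1* and *Gli1* were at 47.3 and 60 CPM and at 26 and 23.3 CPM. *Pdgfra*, a receptor of crest mesenchyme, was at 217 and 196 CPM, and its ligands *Pdgfa* and *Pdgfc* were at 45 and 39.1 CPM and at 35.6 and 39.2 CPM. Of the endothelin system *Edn3* was at 13.9 and 9.66 CPM, *Ednrb* at 44.4 and 57.6 CPM and *Ednra*, the receptor of the arch mesenchyme, at 34.3 and 39.2 CPM.

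The growth factors with the highest levels were outside these families. *Mdk*, the heparin-binding factor midkine, was at 856 and 736 CPM (601 RPKM), the highest per length of all 150 ligands. *Igf2*, a fetal growth factor, was at 706 and 702 CPM (123 RPKM), although 65% of its exon bases are shared with another gene. Over all lists 103 of 150 ligands (68.7%), 116 of 125 receptors (92.8%) and 22 of 29 antagonists were at 1 CPM or above. Per length the median of the mean levels was 1.31 RPKM for ligands and 4.76 RPKM for receptors. In these lists receptors were more often at 1 CPM or above than ligands, beside 62.3% of all protein-coding genes. This cut-off is not corrected for transcript length. The lists were chosen with earlier results of these data known. These shares, and that of the transcription factors, therefore describe the lists only.

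Markers of the cell types that the explants can hold were examined as lists. In bulk RNA, fewer cells of a type and less RNA per cell cannot be told apart. The facial mesenchyme list had 22 of 22 members at 1 CPM or above and a summed level of 2891 CPM in wt1 and 2850 CPM in wt2. The epithelium list had 25 of 25 and sums of 471 and 478 CPM, with *Krt8* and *Krt18*, keratins of simple epithelium, at 34 and 28.6 RPKM. *Trp63*, the factor of stratified epithelium, was at 30.6 and 32.1 CPM. In the mesenchyme and epithelium lists the sums of the libraries lay 1.01-fold apart. Other lists of the labelled tissue were less even. The maxillary and nasal sum was 1.04-fold higher in wt1 (counting interval 1.01 to 1.08) and the nasal placode sum 1.12-fold (1.08 to 1.16). The mandibular sum was 1.03-fold higher in wt1, with an interval that held equality (0.964 to 1.09).

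Blood and vessels were present in both libraries. Erythroid markers, 17 of 17 at 1 CPM or above, summed to 4364 CPM in wt1 and 5240 CPM in wt2, most of it from *Hbb-y*, *Hbb-bh1* (1074 and 1054 CPM) and *Hba-x* (537 and 952 CPM), which are the globins of primitive red cells. The adult-type alpha globins *Hba-a1* (64.6 and 82.5 CPM) and *Hba-a2* (26.7 and 33.3 CPM) are near-identical copies, so how reads were split between them is uncertain. All 16 endothelial markers were present, with *Kdr*, the main VEGF receptor, at 47.7 and 38.3 CPM. All 14 macrophage markers were present at lower levels, with sums of 94.3 and 84.8 CPM.

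Nervous tissue was also found in both libraries. All 18 neuron markers were at 1 CPM or above and summed to 937 CPM in wt1 and 1068 CPM in wt2. *Tubb3*, a tubulin of early neurons, was at 305 and 330 CPM, and *Pou4f1*, a factor of sensory ganglia, was at 13.8 and 17.3 CPM. All 18 forebrain and eye markers were at 1 CPM or above, with sums of 219 CPM in wt1 and 182 CPM in wt2. Among them were *Lhx2*, at 24.5 CPM in each, *Six6*, at 15.5 and 11.4 CPM, and *Rax*, at 2.25 and 2.03 CPM. Several of these genes, such as *Pax6* with 41.4 and 36.6 CPM, are also expressed in the nasal placode.

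Later or more distant cell types were represented in part. Of 16 cartilage and bone genes 11 were at 1 CPM or above. *Col2a1*, a collagen of cartilage and of early embryonic tissues, was at 200 and 195 CPM, while *Acan*, the proteoglycan of mature cartilage, was at 0.898 and 1.01 CPM and *Runx2*, the master factor of bone, at 1.53 and 1.79 CPM. The muscle determination factors *Myod1* and *Myf6* were at the floor, and *Myf5* was at 3.59 and 2.92 CPM. Lens genes were few, with the crystallins *Crygd* and *Cryaa* at the floor. *Alb* and *Afp*, defining genes of liver and yolk sac, were at the floor as well.

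**Figure D4:**
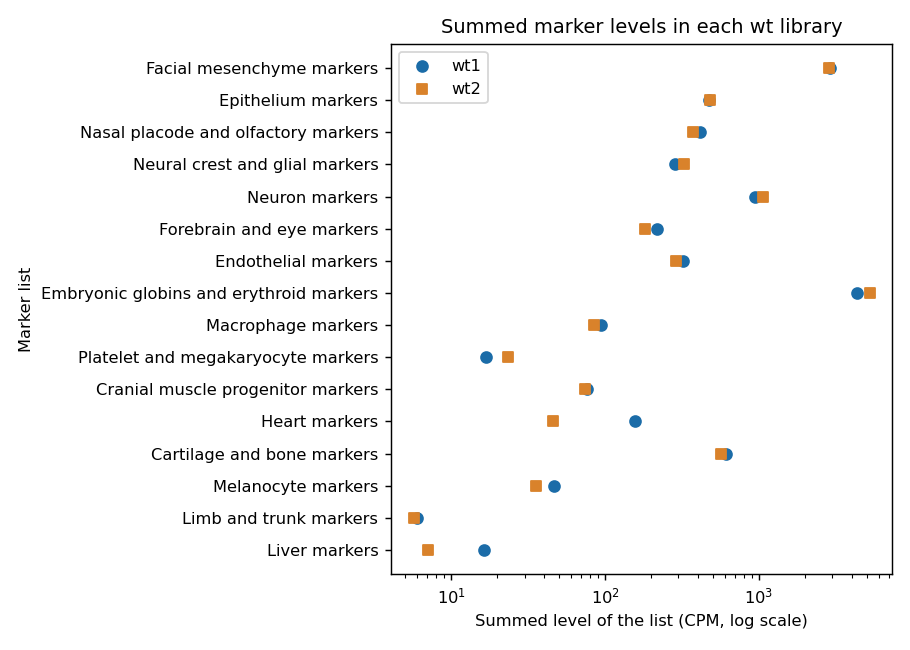
Summed CPM (x axis, log scale) of the members of each marker list (y axis) in wt1 (circles) and wt2 (squares). The symbols of the mesenchyme and epithelium lists lie on each other. The heart list (157 CPM in wt1, 45.9 CPM in wt2) and the liver list (16.3 and 7.1 CPM) are farthest apart.

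The libraries were then compared with each other. This compares 2 libraries and not conditions, and the 95% counting interval of each ratio covers counting error only. Across the 14622 genes at 1 CPM or above that had a count in both, the Spearman correlation of CPM was 0.991, a description across genes that share libraries and are not independent replicates. The median log2 ratio of wt2 to wt1 was -0.01 and the central part of the genes, between the quartiles, lay between -0.17 and 0.15. The median absolute log2 ratio was 0.27 at 1 to 10 CPM, 0.13 at 10 to 100 CPM and 0.11 at 100 to 1000 CPM. The counts differed by more than sampling noise, since 71% of the 95% intervals held equality. The 2 count tables were thus not copies of each other, and both libraries were kept. Whether the spread between them is technical or biological cannot be told from the labels.

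A gene was called apart when its whole counting interval lay past 2-fold. Among the 14623 genes this held for 36 genes (0.246%) that were higher in wt1 and for 10 genes (0.0684%) that were higher in wt2. None of the 306 transcription factors, 103 ligands, 116 receptors and 22 antagonists at 1 CPM or above was called. Of the 712 members of the 66 lists with 1 CPM or more, 12 were called. They were 11 of the 18 heart markers and *Ttr*, all of them higher in wt1.

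**Figure D5:**
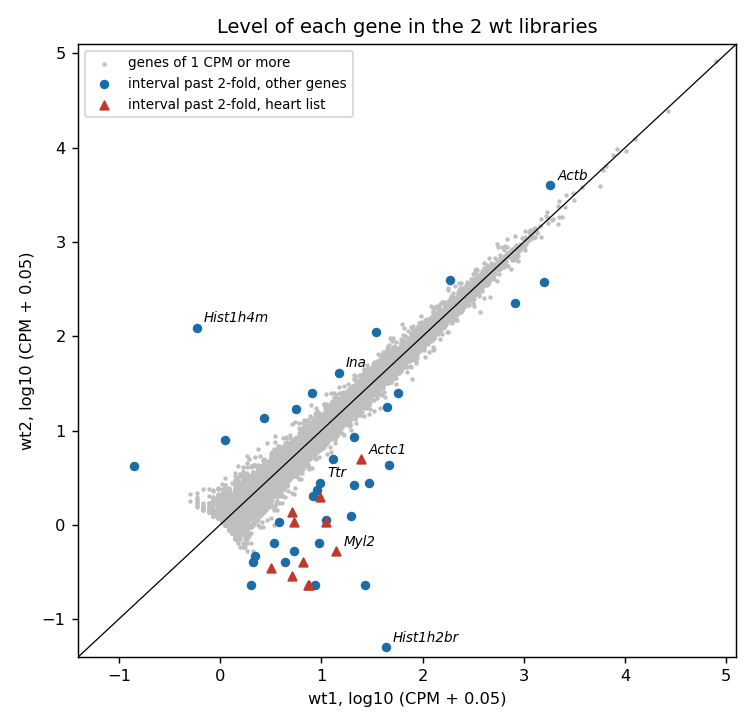
Level of each gene with a mean of 1 CPM or more in wt1 (x axis) and wt2 (y axis), as log10 of CPM + 0.05. Grey points are genes that were not called, blue circles the called genes outside the heart list and red triangles the 11 called heart genes, all of which lie below the line of equality.

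The heart list summed to 157 CPM in wt1 and 45.9 CPM in wt2, a 3.42-fold difference (counting interval 3.14 to 3.73). *Myl2*, the ventricular myosin light chain, had 155 counts (13.9 CPM) in wt1 and 8 counts (0.477 CPM) in wt2, which is 29.2-fold (14.4 to 68.8). *Myl7*, the atrial light chain whose promoter is shown above, had 108 and 32 counts, or 9.7 and 1.91 CPM, which is 5.08-fold (3.4 to 7.79). *Actc1*, cardiac actin, had 274 and 82 counts, or 24.6 and 4.89 CPM, which is 5.03-fold (3.92 to 6.52). *Myh6* and *Myl3*, a cardiac myosin heavy chain and a light chain, had 83 and 81 counts in wt1 and 3 counts each in wt2. All of these genes of the contractile apparatus were lower in wt2, where *Myh6* and *Myl3* did not pass 3 counts while *Actc1* and *Myl7* stayed above 1 CPM. The regulators on the list were low in both, with *Nkx2-5* at 0.629 and 0.119 CPM and *Gata4* at 0.898 CPM and no count. *Tbx20*, also a factor of cranial motor neurons, went the other way, with 11.3 CPM in wt1 and 14.3 CPM in wt2. *Mybpc3*, *Csrp3* and *Pln*, cardiac genes outside the list that were noticed after their values were seen, were called in the same direction.

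*Ttr*, the transthyretin gene of liver, yolk sac and choroid plexus, had 108 counts (9.7 CPM) in wt1 and 46 counts (2.74 CPM) in wt2, a 3.53-fold difference (2.48 to 5.11). Of its list *Apob* was the other gene at 1 CPM or above, with 5.57 and 3.22 CPM.

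Among the other called genes many belong to families with near-identical copies, where the division of reads between copies is uncertain. *Hist1h4m*, a histone H4 gene, had 6 counts in wt1 and 2068 counts in wt2. *Hist1h2br* had 481 counts in wt1 and none in wt2, and *Hist1h2ba* had 299 and 3 counts. *Hist1h2ap* was 3.26-fold higher in wt2 (2.92 to 3.65). The sum of all 62 replication-dependent histone genes was nevertheless 19000 CPM in wt1 and 20150 CPM in wt2, so the family as a whole was similar while single copies were not. *Rprl3*, a copy of the RNA of ribonuclease P, was 16-fold higher in wt1 (8.35 to 34.2), and *Rn7s6* was 5-fold higher in wt2 (3.41 to 7.59). The predicted genes *Gm10800*, *Gm26870* and *Gm25776* were 10.9-fold, 10.8-fold and 10.3-fold higher in wt1, and *Gm24105* was 3.06-fold higher in wt2. Also among the 10 largest called ratios in wt1 with a mean of at least 5 CPM were 2 identifiers without a name in the annotation, ENSMUSG00000092665 and ENSMUSG00000092773, at 16.6-fold and 8.26-fold. *Myh7*, the slow and fetal ventricular myosin, was the other gene of these 10, at 10.8-fold (6.48 to 19.2).

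Among the remaining called genes *Actb*, cytoplasmic beta actin, which is a frequent reference gene and has many processed pseudogenes, had 20327 counts (1825 CPM) in wt1 and 66990 counts (3996 CPM) in wt2, a 2.19-fold difference (2.16 to 2.22). *Srsf7*, a splicing factor, was at 185 and 395 CPM, 2.14-fold (2.04 to 2.25). *Ina*, the neuronal intermediate filament internexin, was at 14.7 and 40.8 CPM, 2.77-fold (2.33 to 3.31). *Sptssa*, a subunit of the enzyme that starts sphingolipid synthesis, was at 7.99 and 25.2 CPM, 3.15-fold (2.5 to 4). *Slc15a2*, a peptide transporter that was chosen after its values were seen, was at 1.08 and 7.87 CPM, 7.31-fold (4.05 to 14.5).

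Smaller differences were found in other lists. Of the 18 neuron markers 16 were higher in wt2, with a median log2 ratio of 0.30 beside -0.01 for all genes, and the summed level was 1.14-fold higher (1.11 to 1.17). Of the 18 forebrain and eye markers 16 were higher in wt1, with a median of -0.27 and a summed level 1.2-fold higher in wt1 (1.14 to 1.27). The erythroid sum was 1.2-fold higher in wt2 (1.19 to 1.21), where 12 of the 17 genes were higher, most of the difference coming from *Hbb-y* and *Hba-x* while *Hbb-bh1* had 1074 CPM in wt1 and 1054 CPM in wt2. The endothelial sum was 1.12-fold higher in wt1 (1.07 to 1.16), where 11 of the 16 genes were higher. The platelet sum was 1.4-fold higher in wt2 (1.17 to 1.67), as were all 5 of its genes at 1 CPM or above. The melanocyte sum was 1.32-fold higher in wt1 (1.17 to 1.49), with 4 of the 5 genes at 1 CPM or above higher there. The neural crest and glial sum was 1.14-fold higher in wt2 (1.09 to 1.19), and the nasal placode sum was 1.12-fold higher in wt1 (1.08 to 1.16). The sum of the WNT/beta-catenin targets was 617 CPM in wt1 and 550 CPM in wt2, most of the difference coming from *Ccnd1*. Of the 12 targets at 1 CPM or above, 7 were higher in wt1 and 5 in wt2, with a median log2 ratio of -0.07.

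Genes of the sex chromosomes were read in both libraries. *Xist*, the RNA that silences an X chromosome in female cells, was at 683 CPM in wt1 and 894 CPM in wt2. Of the Y-linked genes, *Ddx3y* had 12 and 2 counts, *Eif2s3y* 5 and 1, and *Kdm5d* 5 and 1, and their means were below 1 CPM. *Uty* had 27 and 32 counts, or 2.42 and 1.91 CPM.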

How the data were processed

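Genotype and replicate were taken from the sample labels. The authors trimmed single-end reads of 50 bases with Cutadapt, aligned them by STAR against GRCm38 and deposited raw counts per Ensembl gene made with HTSeq-Count. Versions, annotation release, strand setting and treatment of multi-mapped reads are not given in the sources used here. The deposited tables hold no line for unassigned reads.

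From these counts CPM were computed per library on total counts, as mean of n = 2, and RPKM by union exon length. Of 38561 identifiers, 36723 matched GENCODE vM21 by identifier. The ratio of wt1 to wt2 has an exact Clopper-Pearson 95% interval, and the call past 2-fold was tested on simulated data. No test between conditions was made, since 1 group was analysed. PCR duplicates are not marked, so intervals and floors cover counting error only.

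Members and lists were chosen with earlier results of these data known. The text names the 6 markers, the members with the highest RPKM per list, those at the floor, whole paralogue families and ligand-receptor sets, the 10 protein-coding genes with the highest CPM, and per direction the 10 largest called ratios with a mean of at least 5 CPM. Python 3.11.15, numpy 2.4.6, pandas 2.3.3, scipy 1.17.1, R 4.3.3, edgeR 4.0.16 (TMM factors) and DESeq2 1.42.0 (size factors) were used. Alternatives are described with their effect at the end.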

Additional observations from a re-analysis of the deposited data

How the results depend on the processing

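The number of genes at 1 CPM or above lay between 13249 and 16985 under all alternatives, and 14550 to 14601 with a library left out. The 46 genes apart past 2-fold (36 higher in wt1, 10 in wt2) also numbered 46 with TMM factors or DESeq2 size factors. With either of these factors, however, 34 were higher in wt1 and 12 in wt2. They numbered 48 with totals without mitochondrial and globin genes and 62 with no minimum CPM. With a mean of at least 5 CPM they were 29, of which 21 were higher in wt1. With protein-coding genes only they were 28, again with 21 higher in wt1. With the point ratio in place of the interval they were 238 (127 in wt1 and 111 in wt2). At 1.5-fold, an alternative chosen after the data were seen, they were 125 (67 and 58). These changes follow from the filters themselves. The count of called heart markers was 11, 11 with TMM factors and 12 with no minimum CPM. Ordered by CPM without division by length, 13 of the first 20 transcription factors were among the 20 by RPKM, and with basic transcript lengths 19 were. The totals without mitochondrial and globin genes raised 15 of 18 single gene levels by 1 SD or more, and TMM factors moved none of them that far. With 2 libraries, leaving out either always moves a mean by less than 1 SD. No paired analysis was possible because only 1 group was analysed. Depth limits genes below 1 CPM, where 3 counts are 0.269 and 0.179 CPM.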

Other observations

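A list of 22 imprinted growth genes, drawn up after their values had been noticed, held several of the most abundant transcripts. *H19*, a noncoding RNA expressed from the maternal copy, was at 3080 CPM in wt1 and 3335 CPM in wt2. *Grb10*, a growth-restraining adaptor, was at 1900 and 1723 CPM, *Mest* at 1000 and 910 CPM and *Peg3* at 880 and 715 CPM. *Cdkn1c*, a cell cycle inhibitor, was at 359 and 401 CPM. Of the list 21 genes were at 1 CPM or above, 13 reached 100 CPM, none was called apart between the libraries, and their summed level was 10300 CPM in wt1 and 10270 CPM in wt2.

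All 20 listed cell cycle genes had a mean of at least 10 CPM. *Top2a*, *Pcna* and *Mki67*, which mark dividing cells, had 142, 116 and 115 RPKM. Among the cyclins *Ccnd2* differed most, with 226 CPM in wt1 and 363 CPM in wt2, which is 1.6-fold (counting interval 1.53 to 1.68).

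A list of 20 genes of the neuronal cytoskeleton and of neuronal channels was also drawn up after the difference in *Ina* had been seen, and is no independent evidence of a direction. Of its 18 genes at 1 CPM or above, 18 were higher in wt2, with a median log2 ratio of 0.47, and 1, *Ina*, was called. *Nefm* had 21.2 CPM in wt1 and 38.8 CPM in wt2, and *Prph*, a filament of peripheral neurons, had 1.89 and 4.89 CPM.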
